A study of Mus musculus with 6 samples.

Results

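The AP-1 and Egr immediate early factors are 10 transcription factor genes chosen by name: Fos, Fosb, Fosl1 and Fosl2 of the Fos family, Jun, Junb and Jund of the Jun family, Atf3, and the zinc finger genes Egr1 and Egr2. All 10 were found among the 54532 gene rows of the deposited table. They were followed in bulk RNA sequencing of hippocampal neurospheres, floating clusters in which neural progenitor cells divide, from C57BL/6 mice at postnatal day 0, harvested on culture day 7. Both groups of 3 libraries were cultured with FGF-2 and EGF at 20 ng/ml each, growth factors that themselves signal through the MAP kinase cascade, and carry the hGFAPCre transgene, in which the human GFAP promoter drives Cre recombinase. CTRL mice are hGFAPCre+, Fgf13+/y and FGF13cko mice are hGFAPCre+, Fgf13 flox/y, so that the comparison asks what differs when Fgf13, which encodes an intracellular FGF homologous factor, can be deleted by Cre. Deletion is limited to cells in which that promoter has been active. Cells of 1 mouse filled 2 wells. The labels call the controls littermates but do not tie a library to a mouse, so p-values measure the spread between these libraries, which may be technical.

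Immediate early genes are switched on within minutes of a growth factor, calcium or stress signal, without new protein synthesis. Fos and Jun proteins carry a basic leucine zipper (bZIP), pair through it, and bind the AP-1 site TGACTCA or the cyclic AMP response element (CRE) TGACGTCA. Jun proteins can pair with each other, whereas Fos proteins need a Jun partner. Fosl1 and Fosl2 (also called Fra-1 and Fra-2) are induced later than Fos and lack its strong activation domain, and Egr1 and Egr2 bind GC-rich sites through zinc fingers. In neural progenitors these factors stand downstream of EGF and FGF receptors.

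Reads assigned to genes came to between 22191718 and 24531400 per library. Values below are normalized counts, read counts that the authors divided by each library's size factor. Fgf13 itself had 480, 651 and 276 normalized counts in CTRL 1, 2 and 3 and 201, 239 and 332 in FGF13cko 1, 2 and 3. The groups overlapped, and the whole-gene count did not pass the test (log2 change -0.81, limma adjusted p = 0.134). Both replicate 3 libraries stood apart from the others of their group, and mitochondrially encoded genes took 4.14% of reads in CTRL 3 and 4.05% in FGF13cko 3, against 1.46% to 2.36% in the other 4 libraries. For the labelled cell type, 8 neural progenitor markers summed to 91727 to 107966 normalized counts in CTRL and 109205 to 125288 in FGF13cko. This was the highest sum among the marker lists, which differ in length, and Slc1a3 and Fabp7 made up most of it. The median log2 change of the 8 was -0.52, with 2 above 0. Of the 8, 4 (Sox2, Pax6, Hes5 and Prom1) were lower in FGF13cko, where 7.08% of all genes tested were.

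RefSeq (GRCm38.p6) gave promoters for 8 of the 10 genes, all but Fosl1 and Egr1. The 250 bases before the transcription start are printed for 4 genes that later differ in how they behave across libraries: Fos and Junb, both high in CTRL 3, and Jun and Atf3, both low there. Capitals mark the CRE core TGACG in Fos, Junb and Atf3 (where it lies on the opposite strand and reads CGTCA), and the variant site TGACATCA in Jun. The windows are chr12:85473640-85473889 on the plus strand for Fos, chr8:84978749-84978998 on the minus strand for Junb, chr1:191183334-191183583 on the minus strand for Atf3 and chr4:95052223-95052472 on the minus strand for Jun. For Junb and Atf3 the RefSeq start differs from the end of the GENCODE gene given below.
Fos: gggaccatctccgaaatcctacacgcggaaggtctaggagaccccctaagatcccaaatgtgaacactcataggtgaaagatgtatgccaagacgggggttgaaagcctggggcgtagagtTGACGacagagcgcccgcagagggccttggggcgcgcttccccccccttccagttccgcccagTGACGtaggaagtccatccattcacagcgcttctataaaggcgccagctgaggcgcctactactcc
Junb: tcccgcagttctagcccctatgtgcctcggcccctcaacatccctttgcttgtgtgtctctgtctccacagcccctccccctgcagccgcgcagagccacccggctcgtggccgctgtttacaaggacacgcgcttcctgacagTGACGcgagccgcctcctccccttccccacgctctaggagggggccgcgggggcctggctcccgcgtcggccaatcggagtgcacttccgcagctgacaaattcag
Atf3: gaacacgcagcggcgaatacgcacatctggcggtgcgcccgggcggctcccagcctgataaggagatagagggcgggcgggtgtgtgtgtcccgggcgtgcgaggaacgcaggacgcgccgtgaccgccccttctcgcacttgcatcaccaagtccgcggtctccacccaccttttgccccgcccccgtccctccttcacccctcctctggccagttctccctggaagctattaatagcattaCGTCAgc
Jun: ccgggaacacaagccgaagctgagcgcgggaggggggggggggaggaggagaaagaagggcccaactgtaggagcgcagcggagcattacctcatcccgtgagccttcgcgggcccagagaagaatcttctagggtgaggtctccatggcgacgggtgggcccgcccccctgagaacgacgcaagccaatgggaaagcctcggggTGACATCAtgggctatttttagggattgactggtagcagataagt
The CRE core began 129 and 66 bases before the start of Fos and 106 bases before that of Junb, and reached to 7 bases before that of Atf3. It was present, on either strand, in 5 of the 8 genes with a promoter (Fos, Fosb, Junb, Atf3 and Egr2), and in 17.8% of all 32851 promoters of this length. TGACATCA, 45 bases before the start of Jun, was in 2.93% of them. Neither the AP-1 site TGACTCA (4.46% of all promoters) nor the full CRE TGACGTCA (1.55%), which contains the CRE core, was found in any of the 8. The Egr site GCGGGGGCG was in the windows of Fosb and Fosl2 (2.57% of all), GCGTGGGCG was in none of the 8 (0.536% of all), and the CArG box bound by serum response factor was in that of Egr2 (1.47% of all). These are matches of letters in a window, not evidence of binding. Sites outside the 250 bases, and the promoters of Fosl1 and Egr1, were not searched.

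Of the 10 genes, 9 were listed above 0 and had a mean of at least 10 normalized counts, the minimum for the test. Fosl1 rose in FGF13cko, and it was the only one of the 9 past the test (limma on log2(normalized count + 1), adjusted p under 0.05 over 16852 genes). Among all genes tested 14.6% passed, 7.55% as higher and 7.08% as lower, so 1 of 9 is near the background. Groups did not overlap for Fosl1 and Atf3, which is 2 of 9, against 39.4% of all genes tested. The median log2 change of the 9 was -0.10, with 4 above and 5 below 0, and the median of all genes tested was 0.02. In the authors' deposited table too, Fosl1 alone among the 9 had an adjusted p under 0.05, where 16.7% of genes with an adjusted p did.

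**Figure D1:**
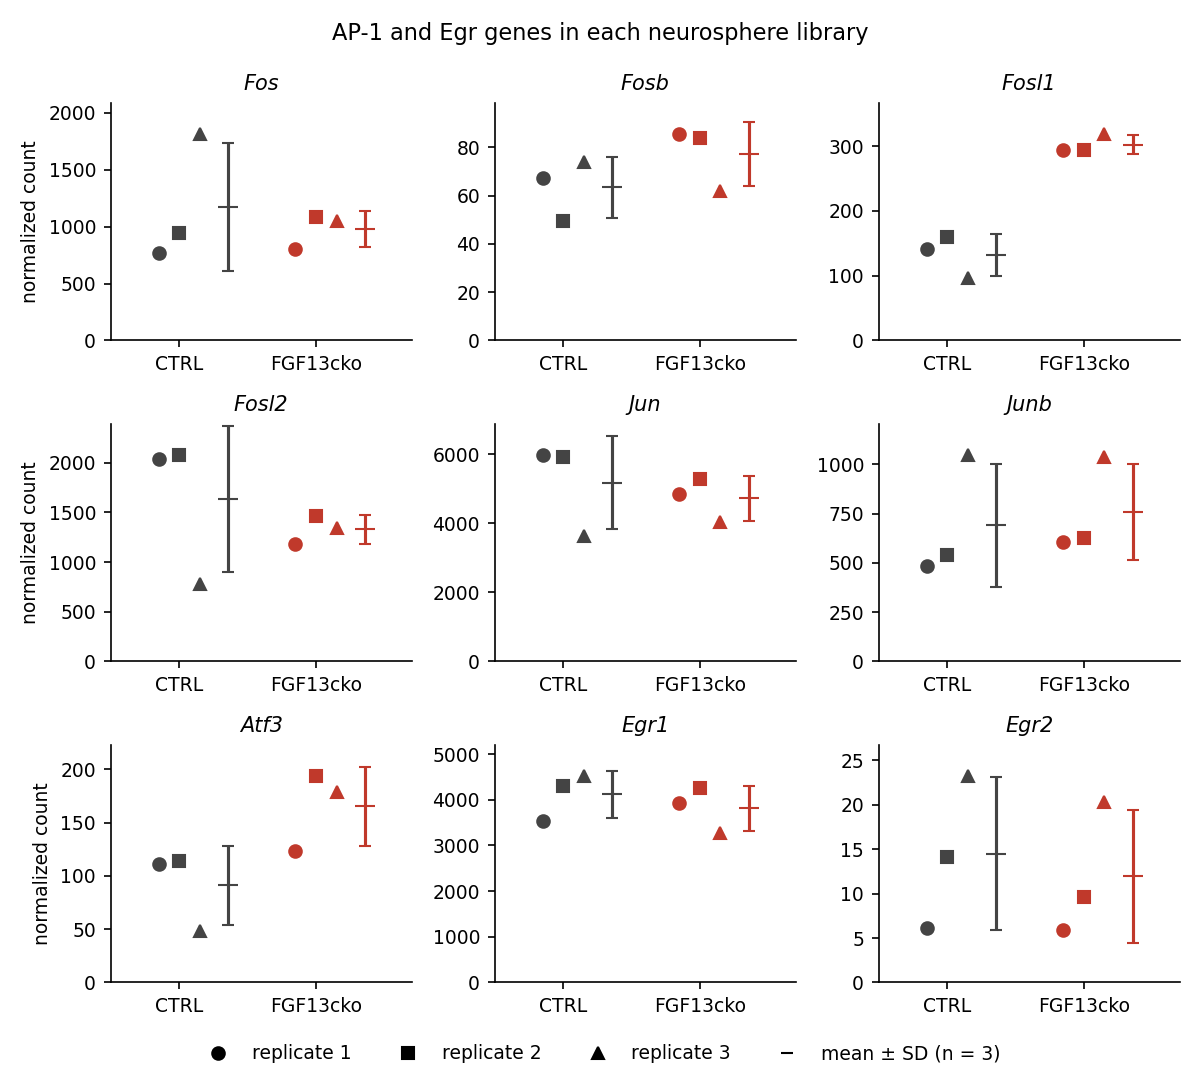
Normalized counts (vertical axes, linear from 0) of the 9 genes listed above 0, by group, with a symbol per replicate and the mean ± SD (n = 3) beside each group. Fosl1 and Atf3 have groups that do not overlap, and the replicate 3 triangles lie apart from the other libraries in Fos, Fosl2 and Junb of CTRL.

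Fosl1 (ENSMUSG00000024912, chromosome 19, 5447547 to 5455946, plus strand, GRCm38), the Fra-1 subunit that marks sustained MAP kinase signalling in many cell types, had 141, 159 and 96.1 normalized counts in CTRL 1, 2 and 3 and 294, 293 and 319 in FGF13cko 1, 2 and 3. All 3 FGF13cko libraries were higher than every CTRL library, and they were closely alike. The means were 132 ± 32.5 and 302 ± 14.6 (SD, n = 3 each), 2.29 times as high in FGF13cko. On the log2(normalized count + 1) scale the change was 1.22 (SE 0.22, limma adjusted p = 0.013). It passed in every fit with another pseudocount, filter, scaling or count model, with an adjusted p of 0.0138 by edgeR (14.9% of genes passed) and 9.84e-06 by DESeq2 (23.6%). Without FGF13cko 2 or FGF13cko 3 the log2 change was 1.24 and 1.18 and the limma adjusted p missed the threshold, at 0.0665 and 0.0517. Over all genes, 469 and 923 passed in these fits, against 2465 with all 6 libraries. The gene Ccdc85b on the opposite strand covers 57.2% of the exonic bases of Fosl1, and since the kit keeps no strand, reads in that stretch cannot be told apart. Ccdc85b had 1550, 1564 and 1317 normalized counts in CTRL 1, 2 and 3 and 1564, 1416 and 1597 in FGF13cko 1, 2 and 3, a log2 change of 0.05 (limma adjusted p = 0.834).

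The 3 genes with a pattern most like that of Fosl1 over the 6 libraries were Filip1, Man1a and Pde3a. Their log2 values, centred on each gene's mean, differed from those of Fosl1 by a root mean square of 0.06, 0.06 and 0.07, where the median of the 12179 genes compared was 0.65. The libraries are the same for every gene compared, so the likeness is a description.

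Fos (ENSMUSG00000021250, chromosome 12, 85473890 to 85477273), the prototype of the family, had 769, 941 and 1814 normalized counts in CTRL 1, 2 and 3. In FGF13cko 1, 2 and 3 it had 799, 1087 and 1050. CTRL 3 was the highest of the 6 libraries and the other CTRL libraries lay within or just below the FGF13cko range. The means of 1175 ± 561 and 978 ± 157 differed by -0.18 on the log2 scale (SE 0.31, limma adjusted p = 0.729). Without CTRL 3 the sign turned, to a log2 change of 0.19 (limma adjusted p = 0.438).

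Fosl2 (ENSMUSG00000029135, chromosome 5, 32135801 to 32157842), the Fra-2 subunit, had 2040, 2078 and 784 normalized counts in CTRL 1, 2 and 3 and 1176, 1464 and 1343 in FGF13cko 1, 2 and 3. CTRL 1 and 2 were above all FGF13cko libraries and CTRL 3 was below all of them. The log2 change over all 6 libraries was -0.17 (SE 0.35, limma adjusted p = 0.77). Without CTRL 3 Fosl2 passed as lower in FGF13cko, at -0.64 on the log2 scale (SE 0.13, limma adjusted p = 0.00945), in a fit where 26.4% of genes passed. Without both replicate 3 libraries it was -0.65 (limma adjusted p = 0.00183), where 37.3% passed. Within replicate 1, 2 and 3, a pairing that the labels do not give, the log2 difference of FGF13cko from CTRL was -0.79, -0.51 and 0.78. Leaving out CTRL 3 changed the call of Fosl2 but not its sign, which turned without CTRL 1 (log2 change 0.05) or CTRL 2 (0.06).

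Fosb (ENSMUSG00000003545, chromosome 7, 19302696 to 19310051), whose truncated splice form accumulates in stimulated neurons, was low, with 67.1, 49.3 and 73.8 normalized counts in CTRL 1, 2 and 3. It had 85.6, 83.9 and 61.9 in FGF13cko 1, 2 and 3. The groups overlapped through FGF13cko 3, and the log2 change was 0.28 (SE 0.26, limma adjusted p = 0.491). Counts over a gene do not separate its splice forms.

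Jun (ENSMUSG00000052684, chromosome 4, 95049034 to 95052222), the main partner of Fos, had 5984, 5909 and 3622 normalized counts in CTRL 1, 2 and 3. In FGF13cko 1, 2 and 3 it had 4848, 5289 and 4025. Both replicate 3 libraries were the lowest of their group. The means of 5172 ± 1343 and 4721 ± 641 differed by -0.10 on the log2 scale (SE 0.23, limma adjusted p = 0.786). Without both replicate 3 libraries it was -0.23 and just missed the threshold (limma adjusted p = 0.0508). The antisense gene Junos shares 7.28% of the exonic bases of Jun and had 30.5 to 52.6 normalized counts.

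Junb (ENSMUSG00000052837, chromosome 8, 84974484 to 84978718), a Jun protein that activates weakly and can hold Jun activity down, had 485, 538 and 1048 normalized counts in CTRL 1, 2 and 3. In FGF13cko 1, 2 and 3 it had 606, 627 and 1037. Both replicate 3 libraries were far above the other 4. With libraries paired by replicate number, which the labels do not do, the log2 difference of FGF13cko from CTRL was 0.32, 0.22 and -0.01. The log2 change over all libraries was 0.17 (SE 0.33, limma adjusted p = 0.748). Prdx2 on the opposite strand shares 7.52% of the exonic bases of Junb, and it was also highest in both replicate 3 libraries, at 7742 and 7661 against 5860 to 6253 normalized counts in the other 4.

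Jund (ENSMUSG00000071076, chromosome 8, 70698949 to 70700616) was listed at 0 in all 6 libraries. The antisense model Gm11175, which shares 52.6% of its exonic bases, was listed at 0 as well. Cox20, an assembly factor of the mitochondrial respiratory chain that most cells use, was also listed at 0 throughout, so nothing is read from the 0 of Jund.

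Atf3 (ENSMUSG00000026628, chromosome 1, 191170296 to 191218039), a stress-induced bZIP factor that pairs with Jun proteins, had 111, 114 and 48.5 normalized counts in CTRL 1, 2 and 3. In FGF13cko 1, 2 and 3 it had 123, 194 and 179. The groups did not overlap, but FGF13cko 1 was close to CTRL 1 and 2. The means of 91.0 ± 36.8 and 165 ± 37.4 (SD, n = 3 each) differed by 0.92 on the log2 scale (SE 0.36) and missed the threshold (limma adjusted p = 0.123). With the replicate number as a block it just passed (limma adjusted p = 0.0488), in a fit where 30.0% of genes passed. The labels do not pair the libraries, and the data do not tell replicate 1 from 2, so that pass rests on an assumed pairing. Without CTRL 3 the log2 change was 0.53 (limma adjusted p = 0.131). Under the same assumed pairing, the log2 difference of FGF13cko from CTRL within replicate 1, 2 and 3 was 0.15, 0.76 and 1.86.

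Egr1 (ENSMUSG00000038418, chromosome 18, 34859823 to 34864984), induced through MAP kinase signalling, varied least among the 9 genes. It had 3541, 4303 and 4526 normalized counts in CTRL 1, 2 and 3 and 3923, 4249 and 3284 in FGF13cko 1, 2 and 3. The groups overlapped over most of their range, with means of 4123 ± 517 and 3819 ± 491. The log2 change of -0.11 (SE 0.16, limma adjusted p = 0.679) ranged from -0.22 to 0.06 over the other fits. The SD of Egr1 within the groups was 0.19 on the log2 scale, smaller than that of most genes, with only 27.2% of tested genes below it.

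Egr2 (ENSMUSG00000037868, chromosome 10, 67535475 to 67542188), known for its part in Schwann cell myelination and hindbrain patterning, was the lowest of the 9. It had 6, 14 and 23 reads in CTRL 1, 2 and 3 and 6, 10 and 21 in FGF13cko 1, 2 and 3. Replicate 3 was the highest library in both groups. The log2 change was -0.24 (SE 0.60, limma adjusted p = 0.814), and counts this low leave a wide error.

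Compared per length, as normalized counts per kilobase of exon, Jun stood highest in CTRL at 1622 ± 421 (SD, n = 3). Egr1 followed at 920 ± 115 and Fos at 499 ± 238, and these top 3 did not overlap with their neighbours in this order except that Fos overlapped with Junb, at 300.1 ± 135. Junb in turn overlapped with Fosl2, at 169 ± 76.1. Fosl1, at 65.0 ± 16.0 per kilobase, overlapped with Atf3, at 42.3 ± 17.1, and did not overlap with Fosl2, while Fosb at 10.2 ± 2.03 and Egr2 at 4.26 ± 2.53 stood apart at the bottom. In FGF13cko, Fosl1 was at 149 ± 7.17 per kilobase and overlapped with Fosl2, at 137 ± 14.9. Exonic length is that of GENCODE M21, and where the counting left out reads shared by overlapping genes the level of Fosl1 per kilobase would be understated. Where it gave reads of Ccdc85b to Fosl1, that level would be overstated.

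The makeup of the Fos family differed accordingly. Fosl1 made up 11.3%, 11.2% and 5.18% of the per-length Fos family level in CTRL 1, 2 and 3 and 23.4%, 18.7% and 20.9% in FGF13cko 1, 2 and 3, without overlap. Fos made up 52.9% and 57.1% in CTRL 1 and 2, 54.8% to 59.9% in FGF13cko, and 84.6% in CTRL 3. The family sum was 618, 701 and 911 per kilobase in CTRL 1, 2 and 3 and 619, 771 and 752 in FGF13cko 1, 2 and 3, so its range overlapped between the groups. In the Jun family, the ratio of Jun to Junb per length was 8.90, 7.92 and 2.49 in CTRL 1, 2 and 3 and 5.77, 6.09 and 2.80 in FGF13cko 1, 2 and 3. It was lowest in replicate 3 of both groups, and in FGF13cko 1 and 2 it lay below that of CTRL 1 and 2. Ccdc85b covers 57.2% of the exonic bases of Fosl1. Where the counting left out shared reads, the Fosl1 shares would be understated and the other Fos family shares overstated. The reverse would hold where it gave reads of Ccdc85b to Fosl1. These shares were not tested.

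**Figure D2:**
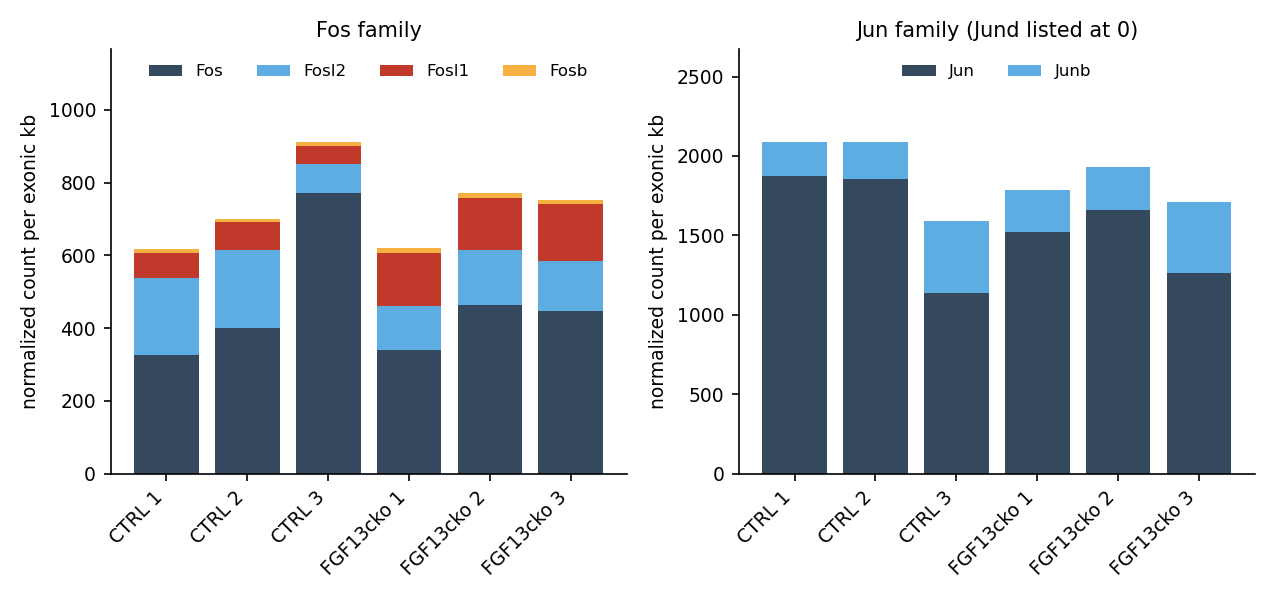
Stacked normalized counts per exonic kilobase (vertical axes, linear from 0) of the Fos family (left) and of Jun and Junb (right) in each of the 6 libraries. The Fosl1 band is wider in all 3 FGF13cko libraries, Fos fills 84.6% of the CTRL 3 bar, and Junb takes a larger part of both replicate 3 bars. The Fosl1 band would be understated where the counting left out reads shared with Ccdc85b, and overstated where it gave reads of Ccdc85b to Fosl1.

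Several of these changes moved with CTRL 3. It was the highest CTRL library for Fos, Fosb, Junb, Egr1 and Egr2, and the lowest for Fosl1, Fosl2, Jun and Atf3. The within-group SD on the log2 scale was 0.49 for Fos, 0.58 for Fosl2, 0.52 for Junb and 0.55 for Atf3, against a median of 0.29 over all genes tested. Fosl1 kept its direction in each fit, with log2 changes between 0.97 and 1.37.

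**Figure D3:**
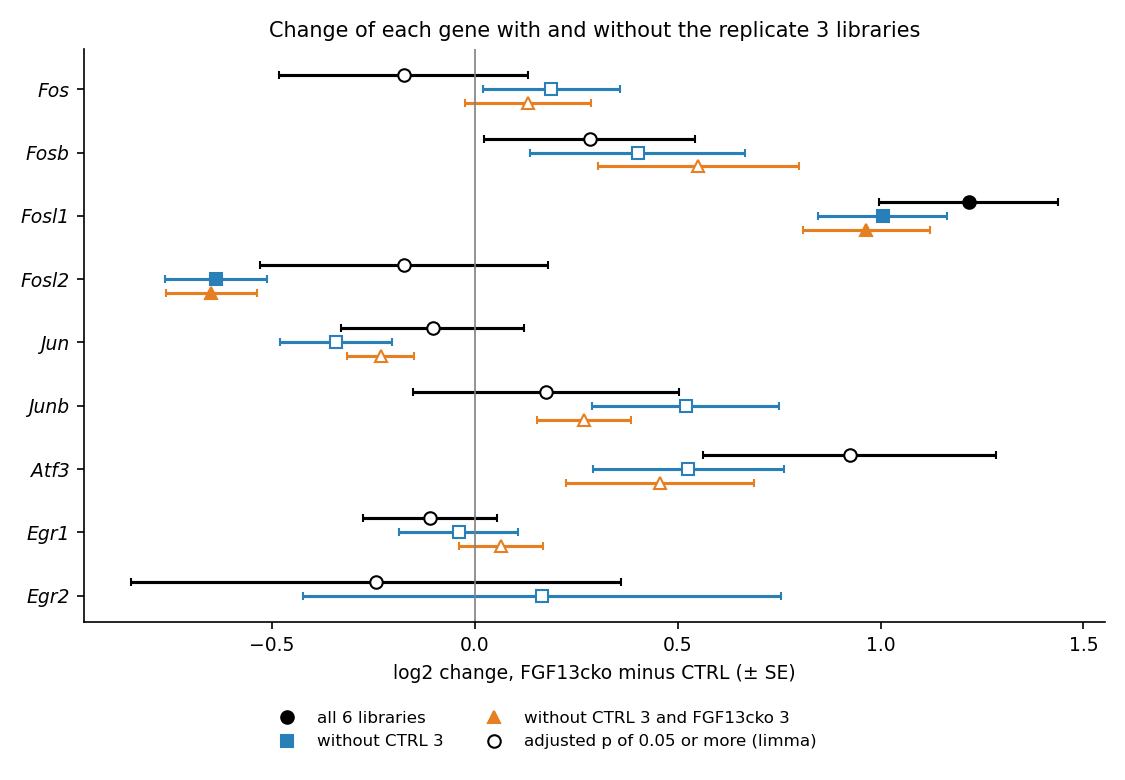
Log2 change of each tested gene (horizontal axis, FGF13cko minus CTRL, bars ± SE) with all 6 libraries, without CTRL 3 and without both replicate 3 libraries. Filled symbols passed the test, which Fosl1 did in all 3 fits shown and Fosl2 only in those without CTRL 3, and Egr2 was too low to be tested without both.

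Among 36 other immediate early genes, all tested, 7 rose and 1 fell in FGF13cko, with a median log2 change of 0.08, where 7.55% of all genes tested rose and 7.08% fell. The pathway lists were chosen with earlier results of these data known, so such counts are a description. Sik1, a kinase of the AMPK family induced by cyclic AMP, had 222, 223 and 154 normalized counts in CTRL 1, 2 and 3 and 453, 544 and 588 in FGF13cko 1, 2 and 3 (log2 change 1.41, SE 0.20, limma adjusted p = 0.00647). All its FGF13cko values lay above all CTRL values, and it passed in every fit. The survival gene Mcl1 rose from 3502 ± 578 to 6318 ± 183 (log2 change 0.86, limma adjusted p = 0.0138) and Gadd45g, a stress sensor that activates MAP kinases, from 829 ± 86.3 to 1527 ± 254 (log2 change 0.87, limma adjusted p = 0.0152). Zfp36l1, which promotes decay of AU-rich mRNAs, fell from 2297 ± 487 to 1183 ± 60.7 (log2 change -0.94, limma adjusted p = 0.0143). The other risers, named after their values were seen, were Klf6, the orphan nuclear receptor Nr4a3, the matricellular gene Ctgf and the kinase Plk2, with log2 changes of 1.22, 1.78, 1.58 and 1.31. With the replicate block 10 rose and 7 fell (30.0% of all genes tested passed in either direction), and without CTRL 3 it was 8 and 9 (26.4% passed). Plk2 (limma adjusted p = 0.0496) missed the threshold without the filter on low values (0.0584), with the filter at 50 (0.0537), with TMM scaling (0.0522) and by edgeR (0.0543), and Ctgf missed it without the filter (0.0729). Without FGF13cko 2 all 8 but Sik1 missed the threshold (limma adjusted p = 0.0681 to 0.159), and without CTRL 1 all but Sik1 and Gadd45g did. Gadd45g, Klf6, Ctgf and Plk2 also missed it without FGF13cko 1, Mcl1, Nr4a3, Ctgf and Plk2 without FGF13cko 3, and Ctgf without CTRL 2. Fewer of all genes passed in these leave-out fits than the 2465 of the main fit. The counts were 469 without FGF13cko 2, 732 without CTRL 1, 923 without FGF13cko 3, 1408 without FGF13cko 1 and 1571 without CTRL 2.

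Of 20 genes known as AP-1 targets, 17 could be tested, 5 rose and none fell, with 14 of the 17 above 0 and a median log2 change of 1.08, against a median of 0.02 and 7.55% higher over all genes tested. This list too was chosen with earlier results of these data known, so its counts and median are a description. Lif, a cytokine that acts on neural stem cells and astrocytes, had 60.0, 48.3 and 51.6 normalized counts in CTRL 1, 2 and 3. In FGF13cko 1, 2 and 3 it had 297, 323 and 327. The groups were far apart and tight (log2 change 2.55, SE 0.19, limma adjusted p = 0.00115), and Lif passed in every fit. Spp1, which encodes osteopontin, rose from 180 ± 69.9 to 598 ± 138 (log2 change 1.79, limma adjusted p = 0.0133), and the protease inhibitor Timp1 from 115 ± 6.31 to 253 ± 84.5 (log2 change 1.09, limma adjusted p = 0.0266). The urokinase gene Plau and the hyaluronan receptor gene Cd44 rose by 1.33 and 1.38 on the log2 scale, named after their values were seen. With the replicate block 11 rose and none fell, and leaving out CTRL 3 gave 8 and 1, in fits where 30.0% and 26.4% of all genes passed, against 14.6% here. With FGF13cko 2 or FGF13cko 3 left out, Lif alone of the 5 passed, with the others at a limma adjusted p of 0.0539 to 0.146. Timp1, Plau and Cd44 also missed the threshold without CTRL 1, Timp1 and Plau without CTRL 2, and Plau and Cd44 without FGF13cko 1. All these fits called fewer genes than the 2465 of the main fit, from 469 without FGF13cko 2 to 1571 without CTRL 2. The 20 genes summed to 87006, 90909 and 42488 normalized counts in CTRL 1, 2 and 3. In FGF13cko 1, 2 and 3 the sums were 136772, 136631 and 101112, and Vim and Ccnd1 made up most of each sum. CTRL 3 was thus low for the list, and the list median without CTRL 3 was not computed. These genes have many regulators besides AP-1.

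**Figure D4:**
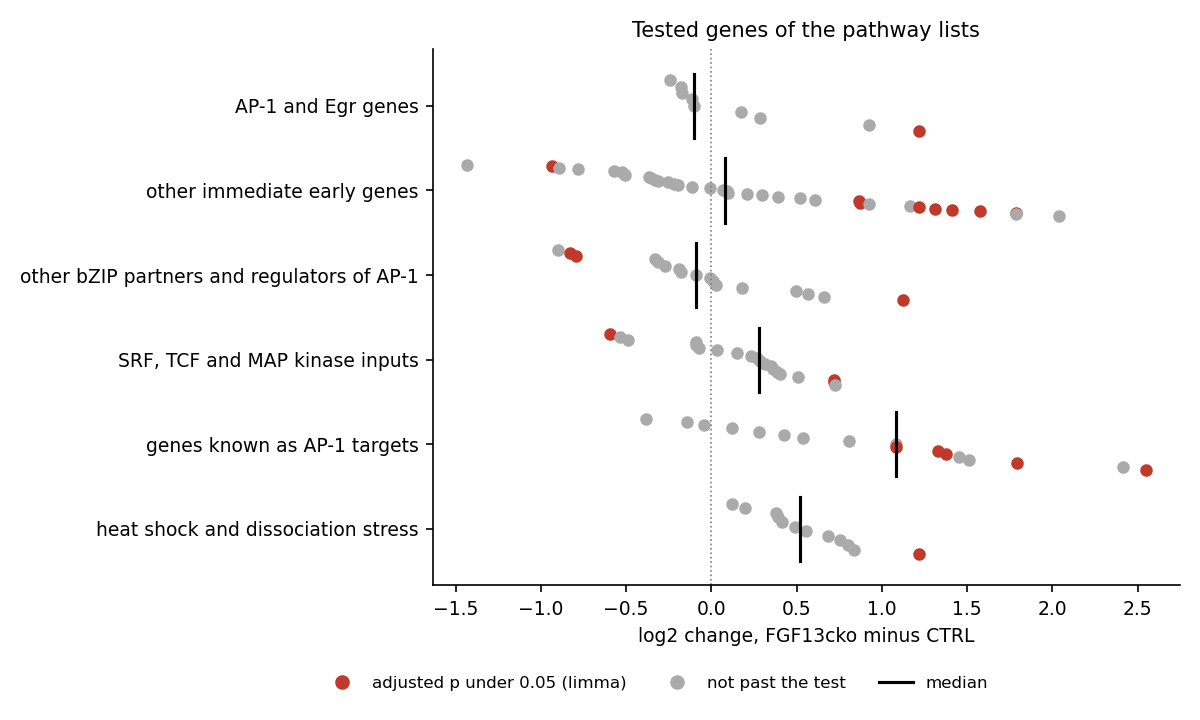
Log2 change (horizontal axis, FGF13cko minus CTRL) of each tested gene of the AP-1 and Egr set and of 5 pathway lists, in red where the gene passed the test, with the list median as a black line. The medians are -0.10 for the AP-1 and Egr genes, 0.08 for the other immediate early genes and -0.09 for the other bZIP partners and regulators. They are 0.28 for the serum response factor and MAP kinase inputs, 1.08 for the AP-1 targets and 0.52 for the heat shock genes. The lists were chosen with earlier results of these data known.

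Of 17 tested genes among other bZIP factors and Egr corepressors 1 was higher and 2 were lower, which is near the 14.6% of all genes that passed. Maf, a large bZIP factor, rose from 665 ± 100.1 to 1451 ± 222 normalized counts (log2 change 1.12, limma adjusted p = 0.00839). The stress response factors Atf5 and Ddit3 (CHOP) fell, from 2599 ± 330 to 1490 ± 88.0 and from 435 ± 63.8 to 244 ± 36.8 (log2 changes -0.80 and -0.83, limma adjusted p = 0.0131 and 0.0265). With the replicate block, where 30.0% of all genes passed, 4 rose and 2 fell. Without FGF13cko 2 all 3 missed the threshold (limma adjusted p = 0.0531 to 0.108), as did Atf5 and Ddit3 without CTRL 1, Atf5 without FGF13cko 3 and Ddit3 without FGF13cko 1. Among 20 genes that feed these promoters, serum response factor, its ternary complex partners and MAP kinases, 2 rose and 1 fell, also near that background. Map2k4 and Mapk10 of the JNK branch, which phosphorylates Jun, rose by 0.72 and 0.72 on the log2 scale (limma adjusted p = 0.0269 and 0.0463). Mapk8 and Mapk9 of that branch changed by 0.40 and 0.36 and Map2k7 by -0.49, named after their values were seen. None of them passed (limma adjusted p = 0.138, 0.0863 and 0.0743). Mapk3, which encodes the kinase ERK1, had a log2 change of -0.59 (limma adjusted p = 0.0416), from 2794 ± 451 to 1839 ± 99.1 normalized counts. Without the filter on low values Mapk10 and Mapk3 missed the threshold (limma adjusted p = 0.0634 and 0.067), and Mapk10 did so by edgeR (0.0538). With the replicate block 5 rose and 3 fell. Leaving out CTRL 1, FGF13cko 2 or FGF13cko 3 ended all 3 calls (limma adjusted p = 0.079 to 0.168), as it did for Map2k4 and Mapk3 with FGF13cko 1, and for Mapk10 and Mapk3 with CTRL 2. Each fit without CTRL 1, CTRL 2 or an FGF13cko library called fewer genes in all, 469 to 1571 against 2465.

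Immediate early genes also answer tissue dissociation and heat, so heat shock genes were read beside them. Of 12, 1 rose and none fell in the main fit, where 7.55% of all genes tested rose. The median log2 change was 0.52, with all 12 above 0. Hspb1 went from 16.5 ± 4.22 to 39.2 ± 5.74 normalized counts (log2 change 1.22, limma adjusted p = 0.0403; 0.0902 without the filter on low values, and 0.0862 to 0.143 with any library but CTRL 3 left out). With the replicate block 5 of the 12 rose and none fell, in a fit where 30.0% of all genes passed in either direction. How near the list is to the background thus depended on the fit. The part of dissociation in the change of Fosl1 was not tested.

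Markers of other cell types moved in the same comparison. The summed level of 12 microglia and macrophage markers was 205 to 218 normalized counts in CTRL and 394 to 651 in FGF13cko, with 3 of 8 tested members higher, where 7.55% of all genes were. That of 8 mural and fibroblast markers was 285 to 427 and 904 to 2489, with 3 of 6 higher. Most of that sum in FGF13cko came from Rgs5, at 659, 798 and 2267 in FGF13cko 1, 2 and 3 against 109, 142 and 310 in CTRL 1, 2 and 3, while Col1a1 had means of 72.5 ± 33.0 in CTRL and 31.1 ± 9.59 in FGF13cko (limma adjusted p = 0.13). The summed level of 6 endothelial markers was 92.6 to 118 and 177 to 319, with 2 of 6 higher. Pecam1 and Vwf, the highest of them in CTRL, did not pass (limma adjusted p = 0.815 and 0.461). Cdh5 and Tek passed from low CTRL means of 1.69 ± 2.12 and 6.08 ± 4.45, to 26.5 ± 12.0 and 25.9 ± 6.58 in FGF13cko. Young neuron markers had 5 of 7 members higher, with sums of 17203 to 22511 and 27367 to 37681, and astrocyte markers 1 of 5 higher, with sums of 18127 to 49118 and 22770 to 49218. Oligodendrocyte lineage markers had 2 of 8 members lower, Sox10 and Gpr17 (log2 changes -1.835 and -2.455), where 7.08% of all genes were. The median log2 change of that list was -0.71, with 2 of 8 above 0. Its sums of 49254 to 73570 and 58689 to 75056 came mostly from Olig1 and Olig2. Erythroid markers had none of 1 tested past the test, with Hba-a2 and Hbb-bt at 0 in all libraries. None of the other lists had a marker at 0 in all libraries. The part of these cells in the change of Fosl1 was not tested, and in bulk RNA a different number of cells of a type cannot be told apart from a different level per cell.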

How the data were processed

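RNA-seq libraries were made with an NEBNext Ultra kit, per the labels' protocols. Per the submitters' processing notes, STAR, DESeq2 and mm10 were used; versions, counting tool and annotation were not given in the sources used here. Per the file headers and values, the authors deposited a normalized signal, in which each library's gene counts are divided by its size factor. Division by the value of 1 read gave whole reads for 100% of values within 0.01 of a read, and recomputed size factors matched to 3.58e-05. The deposited table also holds the authors' log2 fold change, its Wald score, p-value and adjusted p-value.

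The values are not raw counts, so limma (3.58.1, R 4.3.3) with a mean-variance trend was run on log2(normalized count + 1), fitting genotype alone, for 16852 genes with a mean of at least 10. P-values are 2-sided and adjusted by Benjamini-Hochberg over all genes tested. The log2(value + 1) scale understates the change of low genes. Alternatives were other pseudocounts, filters and scaling, a replicate block, leaving out libraries, and edgeR (4.0.16) and DESeq2 (1.42.0) on the recovered reads, which called 2515 and 3971 genes against 2465. Coordinates are GENCODE M21 (GRCm38, the assembly of mm10), 1-based. Same-numbered libraries correlated in their deviations from the group means at 0.36, 0.20 and 0.54, each over 0.1, so the block was read as a pairing taken from the data. CTRL 1 with FGF13cko 2 (0.26) and CTRL 2 with FGF13cko 1 (0.33) also correlated, so these values set replicate 3 apart but do not tell replicate 1 from 2.

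All 10 genes are described. From each pathway list the text names up to 3 risers and 3 fallers by smallest adjusted p. A marker of the progenitor list is not reported here. The members and lists were chosen with earlier results of these data known.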

Additional observations from a re-analysis of the deposited data

How the results depend on the processing

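The count of genes past the test was 2465, 3971 with DESeq2, 5064 with the replicate block, 6145 without both replicate 3 libraries, and 469 to 4373 with 1 library left out. It was 469 without FGF13cko 2, 732 without CTRL 1, 923 without FGF13cko 3, 1408 without FGF13cko 1, 1571 without CTRL 2 and 4373 without CTRL 3. Of the AP-1 and Egr genes 1 passed, 2 with the replicate block (Fosl1 and Atf3), 2 without both replicate 3 libraries (Fosl1 and Fosl2), and 0 to 2 with 1 library left out: none without FGF13cko 2 or FGF13cko 3, 2 without CTRL 3. Without FGF13cko 2 or FGF13cko 3, 1 gene, Fosl1, had an unadjusted limma p under 0.05 (0.0033 and 0.00296), and edgeR and DESeq2 were run on all 6 libraries only, where each called 1. Signs turned for 6 genes. With 1 library left out the log2 change ranged from -0.43 to 0.19 for Fos (above 0 without CTRL 3), from -0.64 to 0.064 for Fosl2 (above 0 without CTRL 1 or CTRL 2), from -0.34 to 0.020 for Jun (above 0 without CTRL 1, CTRL 2 or FGF13cko 3), from -0.075 to 0.52 for Junb (below 0 without CTRL 1 or FGF13cko 3) and from -0.72 to 0.17 for Egr2 (above 0 without CTRL 3 or FGF13cko 1). Without both replicate 3 libraries it was 0.13 for Fos and 0.065 for Egr1. Egr2 gave no value under the filter on a mean of at least 50 and without both replicate 3 libraries. Sik1 and Lif passed in all fits. The other pathway list genes named as past the test missed the threshold in at least 1 fit with a library left out, with no change of sign. Plk2, Ctgf, Mapk10, Mapk3 and Hspb1 also missed it without the filter on low values, Plk2 and Mapk10 by edgeR, and Plk2 with TMM scaling and with the filter at 50. TMM scaling moved the median of all genes by -0.00193. The cause of these differences was not tested. A count of 0 allows up to 3 reads, and limits of this kind cover counting error only.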
